A study of Mus musculus with 4 samples.

Results

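The 9 genes described here encode surface proteins that leukocytes and vessel walls use to bind each other: the integrin chains Itgam, Itgb2, Itgal, Itga4 and Itgb7, the selectins Sele and Selp, the selectin ligand Selplg and the vascular ligand Vcam1. They were taken by symbol from a gene table of 24441 genes, and all 9 were found. The table holds RNA-seq values of lesional back skin from 2 groups of 2 libraries, WT and GSDMD-/- (KO). Both groups were female C57BL/6 mice labelled as 8 weeks old, and all had been injected under the skin with bleomycin (BLM), an antibiotic used to bring on skin fibrosis, on alternate days up to day 28. The KO mice came from C57BL/6 zygotes injected with Cas9 mRNA and a guide RNA, so the deletion is not restricted to a cell type, and the number of founder lines is not given in the sources used here. Gsdmd encodes gasdermin D, the pore-forming protein of pyroptosis. Skin without BLM was not analysed here. The labels do not say whether the 2 libraries of a group came from separate mice, so the p-values measure the spread between these libraries only.

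Leukocytes leave the blood in steps. Selectins on activated endothelium and platelets catch the leukocyte by sugars on its surface, chiefly on PSGL-1, the product of Selplg, and the cell rolls. Chemokine signals then switch its integrins to a binding state, and these αβ pairs hold on to ICAM and VCAM-1 on the vessel wall until the cell stops and crawls through. Mac-1 (Itgam with Itgb2) marks monocytes, macrophages and neutrophils, LFA-1 (Itgal with Itgb2) is found on most leukocytes, and Itga4 pairs with Itgb1 or Itgb7 to bind VCAM-1 or the gut addressin MAdCAM-1.

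Values are FPKM, fragment counts divided by transcript length and by library depth, so levels of different genes can be compared per length. A library summed to between 448544 and 462251 FPKM. The step between the values of weakly expressed genes put 1 fragment on a 1 kb transcript at 0.0574 to 0.0783 FPKM, from which fragment numbers are estimated below. These numbers are approximate. Gsdmd stood at 14.0 and 18.2 FPKM in WT skin and at 3.53 and 2.26 FPKM in KO skin. The KO libraries also differed from each other in cell type markers. The 10 endothelial markers summed to 132 and 207 FPKM in WT, 176 FPKM in KO replicate 1 and 25.4 FPKM in KO replicate 2, and the 6 fibroblast markers to 269, 180, 422 and 24.9 FPKM in the same order. The 6 hair follicle markers summed to 306 FPKM in KO replicate 1 and to 0.669 to 7.97 FPKM in the other 3 libraries. Of 15 Y-linked genes, 4 were above 0 in KO replicate 2 and 0 elsewhere, while the labels call the mice female. The results are therefore given with both KO libraries and without each.

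Upstream sequences of 5 of the 9 genes, Itgam, Itga4, Itgb7, Sele and Selp, were matched in a RefSeq promoter table (GRCm38.p6) and placed on mm9 by exact match. Those of Itgam, Sele and Selp are shown because Itgam had the widest difference between the groups of these 5, and because the KO libraries disagreed on both selectins. Each run is the 250 bases before the gene start, 5′ to 3′ on the gene's strand. Capitals mark matches, on either strand, to a broad κB pattern, GGG and CC with any 5 bases between them, which NF-κB dimers bind, and to GAGGAA, the core bound by Spi1, an Ets factor of myeloid cells.
Itgam: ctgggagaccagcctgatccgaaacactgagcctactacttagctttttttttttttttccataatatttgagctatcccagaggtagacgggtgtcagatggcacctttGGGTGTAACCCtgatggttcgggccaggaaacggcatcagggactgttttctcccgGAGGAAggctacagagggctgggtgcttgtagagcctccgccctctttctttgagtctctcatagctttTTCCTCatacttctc
Sele: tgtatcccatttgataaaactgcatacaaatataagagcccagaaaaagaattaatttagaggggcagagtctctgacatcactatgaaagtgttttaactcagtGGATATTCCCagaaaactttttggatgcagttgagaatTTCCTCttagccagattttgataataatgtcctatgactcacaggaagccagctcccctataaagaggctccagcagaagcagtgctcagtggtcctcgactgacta
Selp: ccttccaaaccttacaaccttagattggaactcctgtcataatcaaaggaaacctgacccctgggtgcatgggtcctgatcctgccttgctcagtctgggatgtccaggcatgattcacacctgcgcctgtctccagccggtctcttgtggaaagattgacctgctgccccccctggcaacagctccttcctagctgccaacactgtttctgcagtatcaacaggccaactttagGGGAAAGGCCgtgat
In mm9 these lie at chr7:135205904-135206153 (Itgam), chr1:165978115-165978364 (Sele) and chr1:166045145-166045394 (Selp), all on the plus strand. The Itgam run held the κB pattern on both strands in 1 overlapping stretch that starts at -140, and the GAGGAA core at -84 and, on the other strand, at -15. In the Sele run the κB pattern lay at -145 to -136 and the core at -107 to -102, both on the other strand. Selp held the κB pattern at -15 to -6. The κB pattern was found in 45.8% and the core in 23.3% of 32851 promoters in windows of the same length, so each match is a description of the letters and nothing more.

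Itgb2 and Itgam, the chains of Mac-1, showed the widest gap between the groups among the 9 genes. Itgb2, the common β chain of the leukocyte integrins (chr10:76993093-77028419 of mm9, plus strand, 16 exons), stood at 53.6 and 54.6 FPKM in WT skin and at 7.79 and 0.906 FPKM in KO skin. The means were 54.1 ± 0.673 and 4.35 ± 4.87 FPKM (SD, n = 2). Itgam, the α chain CD11b (chr7:135206154-135262005, plus strand, 30 exons), stood at 37.5 and 35.7 FPKM in WT against 6.30 and 0.550 FPKM, with means of 36.6 ± 1.26 and 3.42 ± 4.06 FPKM (SD, n = 2). For both genes the WT libraries were close together, both KO libraries were far below them, and KO replicate 2 was the lower. The WT mean was 6.94 times KO replicate 1 and 59.7 times KO replicate 2 for Itgb2, and 5.82 and 66.6 times for Itgam. The estimated fragments behind the lowest Itgb2 and Itgam values were 34.4 and 33.7, so these lows do not rest on a handful of fragments. In bulk skin, fewer cells of a type and less RNA per cell cannot be told apart.

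Fold changes were taken as differences of log2(FPKM + 1), where the added 1 shrinks those of weak genes. The log2 fold change of KO against WT was -3.75 for Itgb2 (SE 0.73) and -3.48 for Itgam (SE 0.74). Of 13027 genes tested, 4 had a lower log2 fold change than Itgb2 and 9 a lower one than Itgam. Neither passed the threshold with all 4 libraries (adjusted p = 0.248 for both by limma with Benjamini-Hochberg adjustment).

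Itgal, the α chain of LFA-1 (chr7:134439774-134478651, plus strand, 31 exons), was weakly expressed beside Itgb2 and Itgam. It stood at 2.05 and 3.07 FPKM in WT skin and at 0.788 and 0.187 FPKM in KO skin, again without overlap. Its log2 fold change was -1.27 (SE 0.32). The lowest value rests on about 12.5 fragments.

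**Figure D1:**
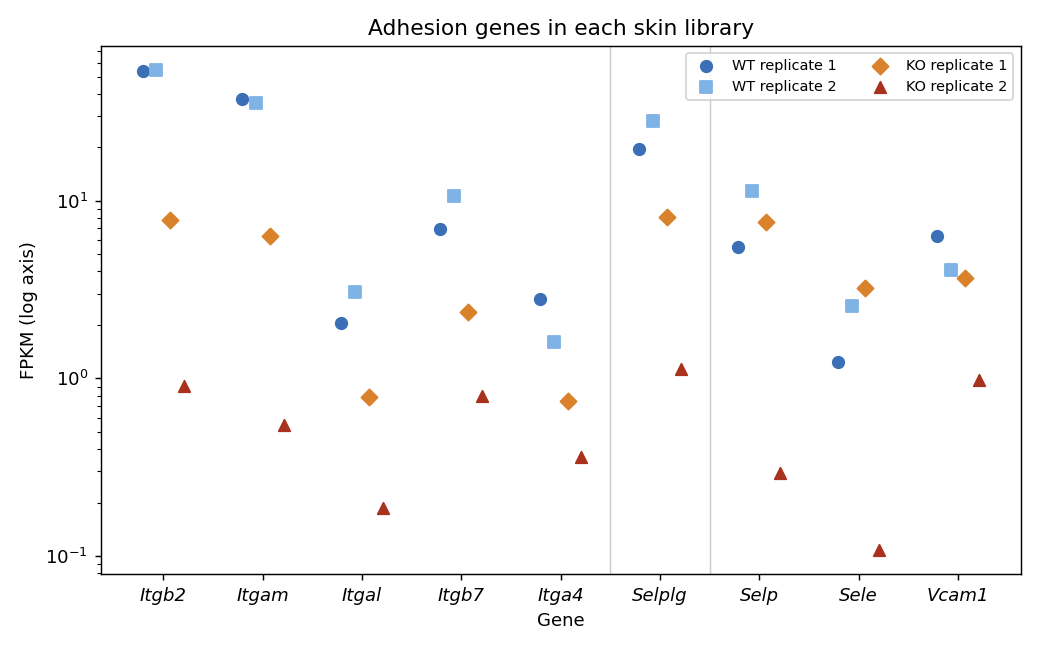
FPKM (log axis) of the 9 adhesion genes in each of the 4 skin libraries, with 1 point per library. For the 5 integrin genes and Selplg both KO points lie below both WT points, for Selp and Sele KO replicate 1 lies among or above the WT points, and KO replicate 2 is the lowest point of every gene.

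The α4 and β7 genes also stood lower in KO skin, by less than Itgb2 and Itgam. Itgb7, the β chain of the gut-homing integrin (chr15:102046426-102062366, minus strand, 15 exons), stood at 6.90 and 10.6 FPKM in WT against 2.36 and 0.799 FPKM in KO libraries (8.74 ± 2.60 and 1.58 ± 1.10 FPKM, SD, n = 2). Itga4, the α chain of the VCAM-1 receptor (chr2:79095583-79173271, plus strand, 29 exons), stood at 2.82 and 1.60 FPKM in WT skin and at 0.741 and 0.358 FPKM in KO skin. Its exons overlap those of Cerkl on the opposite strand, and no source says whether the counting used strand, so its reads may include some of that gene. In both genes the groups did not overlap, and the log2 fold changes were -1.96 for Itgb7 (SE 0.40) and -1.03 for Itga4 (SE 0.31).

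Selplg, which encodes PSGL-1, the main selectin ligand of leukocytes (chr5:114267807-114280510, minus strand, 2 exons), was the most abundant gene of the 9 after Itgb2 and Itgam in WT skin. Its values were 19.6 and 28.1 FPKM in WT skin and 8.08 and 1.13 FPKM in KO skin, with means of 23.9 ± 6.02 and 4.60 ± 4.92 FPKM (SD, n = 2). The KO values lay below the WT values, and the log2 fold change was -2.48 (SE 0.71), and 81 of 13027 genes had a lower one. As a ratio, KO replicate 2 lay farther below KO replicate 1 than that library lay below WT.

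In KO replicate 1 the 3 vessel-side genes stood nearer to WT than any leukocyte-side gene did. Selp, P-selectin of endothelium and platelets (chr1:166045395-166080157, plus strand, 16 exons), stood at 5.52 and 11.4 FPKM in WT, 7.57 FPKM in KO replicate 1 and 0.292 FPKM in KO replicate 2. KO replicate 1 lay between the WT libraries, so the groups overlapped. The exons of Selp overlap those of 2 genes, Gm16548 and Gm16587, on the opposite strand. Sele, E-selectin, made by endothelium under inflammatory cytokines (chr1:165978365-165987808, plus strand, 14 exons), stood at 1.23 and 2.54 FPKM in WT, 3.22 FPKM in KO replicate 1 and 0.108 FPKM in KO replicate 2. Here KO replicate 1 was the highest and KO replicate 2 the lowest of the 4 libraries. The lowest Sele value corresponds to about 4.01 fragments, near a floor of 3 fragments at 0.0807 FPKM, so its size is poorly known. Vcam1, the vascular ligand of α4 integrins (chr3:115812938-115832606, minus strand, 9 exons), stood at 6.36 and 4.10 FPKM in WT against 3.65 and 0.979 FPKM in KO skin. KO replicate 1 was only just below the lower WT library. The log2 fold changes were -1.43 for Selp (SE 0.93), -0.38 for Sele (SE 0.68) and -1.01 for Vcam1 (SE 0.48). The adjusted p was 0.439 for Selp, 0.775 for Sele and 0.340 for Vcam1 by limma with Benjamini-Hochberg adjustment.

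Over the set, no gene passed the adjusted test, and the genes that passed the unadjusted one were all of the leukocyte side. All 9 genes passed the filter on low values, Itgal and Itga4 only through the WT libraries. At the study's threshold (adjusted p under 0.05, log2 fold change beyond 1 in either direction), limma called 0 of the 9 genes, as it called 0% of all 13027. The study set this threshold for DESeq2 on read counts, so the outcome here is not that of the study's own test. With an unadjusted p under 0.05 and a log2 fold change below -1, 6 of 9 were lower, namely Itgb2, Itgam, Itgb7, Itgal, Itga4 and Selplg. Itgal and Itga4, which entered the test only because they were high enough in WT, had to lie lower in KO skin, and without them the count was 4 of 7. The same limit held for 4.14% of all genes in this direction, and 6.16% of all genes were higher by it. Groups did not overlap, with KO the lower, for 7 of 9 genes, all but Selp and Sele, and for 5 of 7 without Itgal and Itga4, against 20.5% of all genes. KO replicate 2 was the lowest library for 9 of 9 genes, against 33.3% of all genes. The median log2 fold change was -1.43 over the 9 genes and 0.11 over all genes tested. This median and the count of 9 of 9 also include Itgal and Itga4. With 2 libraries a group, the smallest two-sided p that an exact permutation test of 1 gene allows is 0.333.

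Without KO replicate 2, the library low in endothelial and fibroblast markers, Itgb2 and Itgam stayed low and passed the threshold. The log2 fold change was then -2.65 for Itgb2 (SE 0.33, adjusted p = 0.0248 by limma) and -2.37 for Itgam (SE 0.33, adjusted p = 0.0404 by limma). They were 2 of 31 genes called among 12702, or 0.244%. Over all alternatives the adjusted p of both genes ran from 0.000951 to 0.954 by limma. The other genes did not pass in this comparison. Itgb7 stood at -1.51, Selplg at -1.43, Itgal at -0.98 and Itga4 at -0.86. Among the vessel-side genes, Vcam1 stood at -0.40, Selp at -0.07 and Sele at 0.59, the last with its sign turned. In this fit and in the next the lone KO library is assumed to vary as the WT libraries do.

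Without KO replicate 1, 7 of the 9 genes passed the threshold, as did 15.2% of 12618 genes, so many genes across the table were called against KO replicate 2 alone. The 7 included both Selp, at -2.80 (adjusted p = 0.0061 by limma), and Vcam1, at -1.63 (adjusted p = 0.0234 by limma), beside Itgb2 at -4.85 and Itgam at -4.60. Over the alternatives, the adjusted p ran from 0.0061 to 0.986 for Selp and from 0.0234 to 0.954 for Vcam1 by limma. Sele, at -1.34, and Itga4, at -1.21, did not pass. Thus Selp and Vcam1 passed the threshold against KO replicate 2 alone and not against KO replicate 1 alone. The same held for Selplg, Itgb7 and Itgal of the leukocyte side, at -3.53, -2.41 and -1.57 without KO replicate 1.

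**Figure D2:**
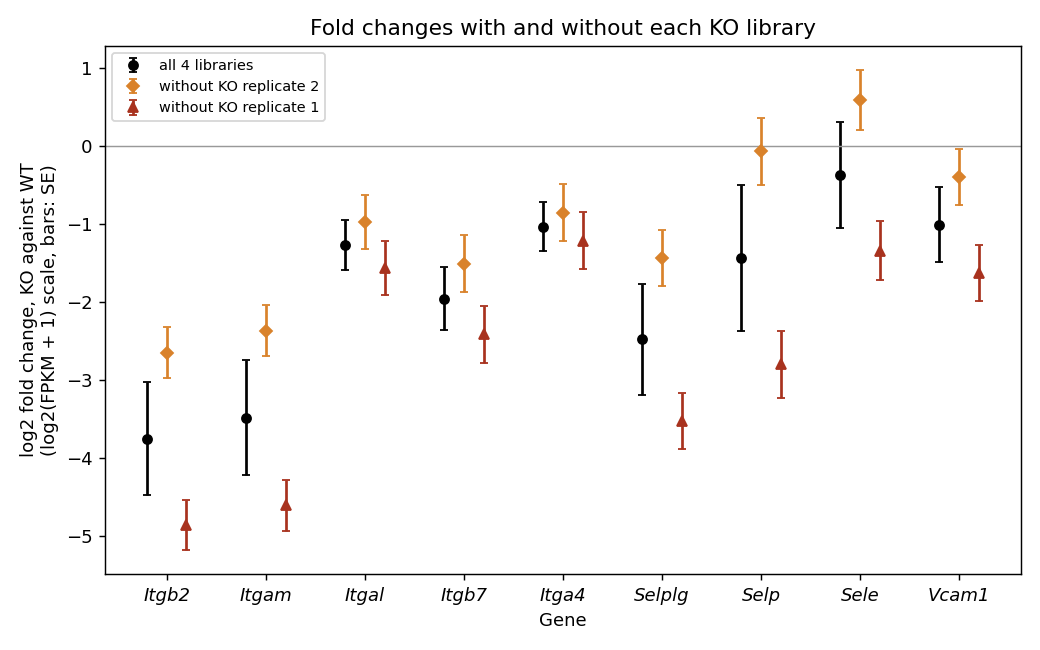
Log2 fold change of KO against WT (vertical axis, log2(FPKM + 1) scale) for each of the 9 genes with all 4 libraries, without KO replicate 2 and without KO replicate 1. Points are limma estimates and bars their SE, and Itgb2 and Itgam stay below -2 in all 3 fits, while Sele moves from -1.34 to 0.59.

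Markers of the cells that carry these proteins moved with them, and their part in the result was not tested. Of 10 pan-leukocyte markers, among them Ptprc (CD45) and Coro1a, 9 were lower by the unadjusted p with a log2 fold change below -1, with a median log2 fold change of -2.18 over the list, and 0 were at 0 in a library. They summed to 522 and 633 FPKM in WT skin and to 277 and 141 FPKM in KO skin. Arhgdib, the marker that was not lower by this limit, held 82.6 and 104 FPKM of the KO sums. In KO replicate 1 the WT mean was between 1.33 times (Arhgdib) and 3.49 times (Coro1a) the KO value of these markers, with a median of 2.51. Itgb2, at 6.94 times, Itgam, at 5.82 times, and Itgb7, at 3.71 times, lay above this range. Itgal at 3.25 times, Itga4 at 2.98 times and Selplg at 2.95 times lay inside it. In KO replicate 2 the range ran from 1.05 times (Arhgdib) to 26.9 times (Laptm5), with a median of 12.3. Itgam and Itgb2, at 66.6 and 59.7 times, were the only genes of the 6 above this range.

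The endothelial markers were near WT in KO replicate 1 and low in KO replicate 2, and their part in the vessel-side values was not tested. Of 10 markers, among them Pecam1, Cdh5 and Kdr, 0 passed the unadjusted limit and 0 were at 0 in a library. In KO replicate 1 the WT mean was 0.725 to 1.16 times the KO value of each, and in KO replicate 2 it was 4.26 to 22.1 times. The ratios of the vessel-side genes in KO replicate 1 were 1.12 for Selp, 0.586 for Sele and 1.43 for Vcam1, and in KO replicate 2 they were 29.0, 17.5 and 5.35. Vcam1 thus lay above and Sele below the range of the markers in KO replicate 1, and Selp lay above it in KO replicate 2. Of the markers of platelets, the other source of P-selectin, Gp9 stood at 0 to 0.258 FPKM and Gp1ba at 0.434 to 0.618 FPKM over the libraries. In the order WT 1, WT 2, KO 1 and KO 2, Ppbp stood at 1.34, 1.96, 0.0803 and 0.606 FPKM and Gp1bb at 6.75, 3.30, 11.2 and 5.19 FPKM, the latter highest in KO replicate 1. The part of platelets in the Selp values was not tested. Pf4, often used as a platelet marker and also made by macrophages, stood at 226, 219, 64.7 and 9.06 FPKM.

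**Figure D3:**
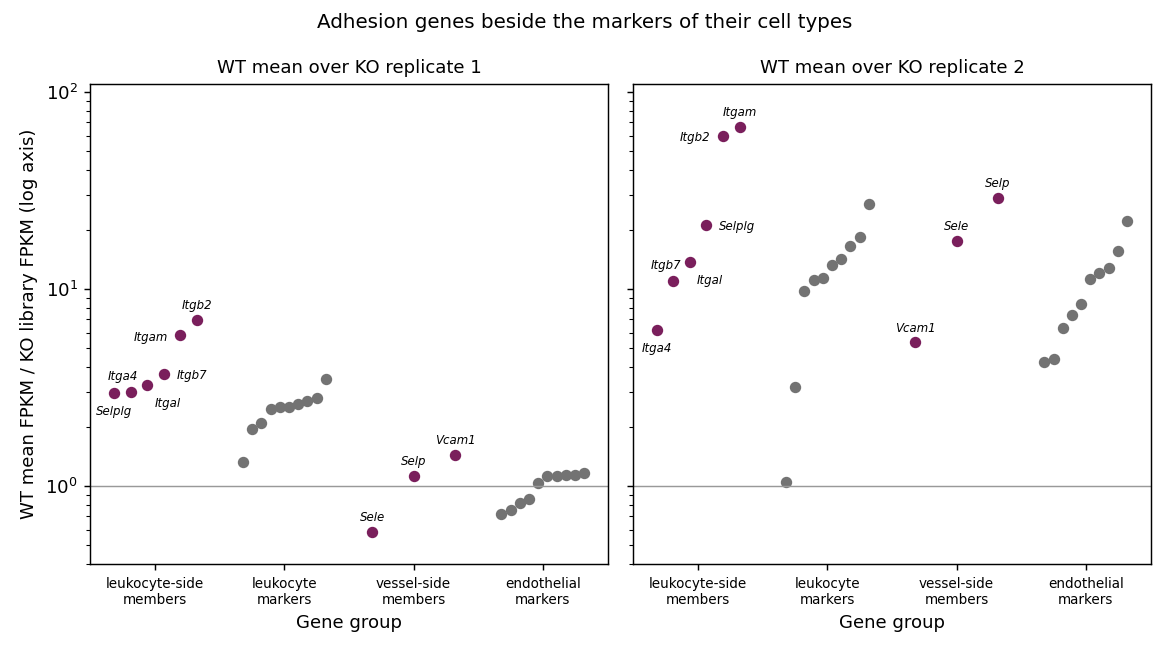
WT mean divided by the value in KO replicate 1 (left panel) and KO replicate 2 (right panel), both on a log axis, with 1 point per gene, for the 6 leukocyte-side genes beside 10 leukocyte markers and the 3 vessel-side genes beside 10 endothelial markers. Itgb2 and Itgam lie above all 10 leukocyte markers in both panels, and a ratio of 1 is drawn as a line.

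Set against the mean log2(FPKM + 1) of the leukocyte markers in the same library, Itgb2 stood 0.78 and 0.56 above it in WT and 0.86 and 1.50 below it in KO skin, with values of 0.78, 0.56, -0.86 and -1.50. Itgam had values of 0.27, -0.04, -1.13 and -1.79 on this scale. The difference of KO minus WT was -1.84 for Itgb2 and -1.58 for Itgam, and the groups did not overlap for either. Selplg differed by -0.57, also without overlap, and Itgb7 by -0.05, with overlap. Itgal differed by 0.63 and Itga4 by 0.87, the latter with overlap, and at a pseudocount of 0.1 the sign of Itgal turned to -0.19 while Itga4 stood at 0.34. Relative to the endothelial markers, Sele differed by 0.75, Vcam1 by 0.12 and Selp by -0.30, the last 2 with overlap. At a pseudocount of 0.1 Sele stood at 0.29, Vcam1 at 0.09 and Selp at -0.75. The added 1 shrinks the fall of Sele in KO replicate 2, where its value was near the floor. There the WT mean was 17.5 times the Sele value, against a median of 9.75 times for the endothelial markers. These are descriptions with no test.

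The balance of the chains also differed between libraries. Itgb2 protein needs an α partner to reach the cell surface, and the 4 α genes that can pair with it, Itgam, Itgal, Itgax and Itgad, summed to 46.1 and 41.1 FPKM in WT skin and to 9.09 and 1.42 FPKM in KO skin. Itgb2 was 1.16 and 1.33 times this sum in WT and 0.857 and 0.638 times in KO skin. Itgam made up 81.4% and 86.9% of the α sum in WT, 69.3% in KO replicate 1 and 38.7% in KO replicate 2, where the α sum is small. Itgax (CD11c, of dendritic cells and macrophages) stood at 6.53, 2.27, 1.99 and 0.664 FPKM in the order WT 1, WT 2, KO 1 and KO 2. Itgad was at or below 0.0517 FPKM. For the β7 pair, Itgb7 was 2.08 and 4.79 times the sum of Itga4 and Itgae in WT and 1.79 and 1.03 times in KO skin.

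**Figure D4:**
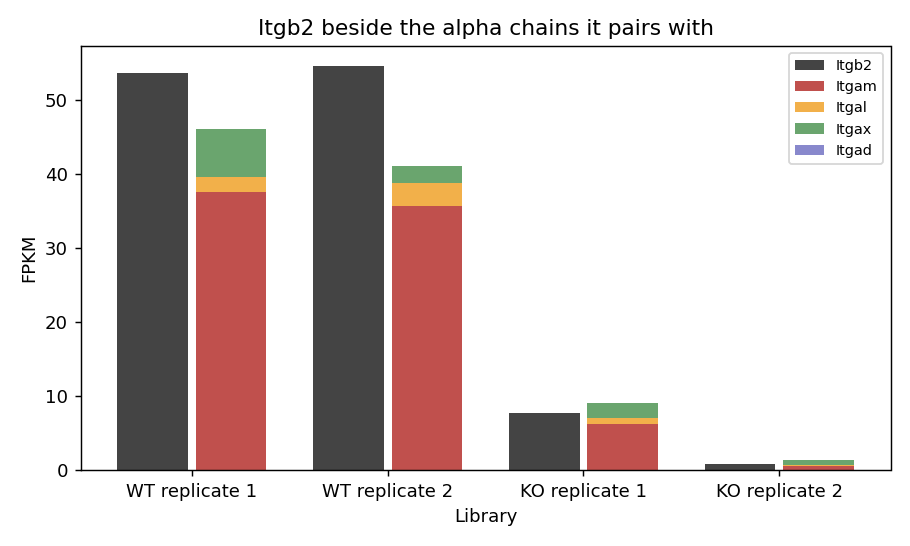
FPKM of Itgb2 (dark bar) and of its 4 α partners (stacked bar) in each library, from 0. Both bars are 41.1 to 54.6 FPKM high in the WT libraries and at most 9.09 FPKM in the KO libraries, and Itgam is the largest α part in 3 of the 4.

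The other ligands of these receptors showed smaller differences than Itgb2 and Itgam. Of 15 other selectin and integrin counter-receptors listed, 14 were in the table and 12 were tested. By the unadjusted limit 0 were lower and 1 was higher, with a median log2 fold change of -0.71. Icam1, the main ligand of both LFA-1 and Mac-1, stood at 17.9, 18.7, 15.7 and 12.2 FPKM (log2 fold change -0.38). Icam2, a resting endothelial ligand of LFA-1, stood at 5.52, 9.29, 8.53 and 1.39 FPKM and so was low in KO replicate 2 alone. The higher gene was Alcam, a ligand of CD6 on T cells, at 3.26, 3.31, 6.87 and 12.1 FPKM (log2 fold change 1.24). Madcam1, the ligand of the α4β7 integrin, was at 0.315 and 0.594 FPKM in WT and listed at 0 in both KO libraries.

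Itgam and Itgax are neighbours on chromosome 7, 11.1 kb apart, and Itgal lies 727.5 kb away on the same chromosome.

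Among genes for the switch that brings integrins to their binding state, 10 of 11 listed were tested. By the unadjusted limit 5 were lower and 0 higher, with a median log2 fold change of -0.83. Fermt3, kindlin-3 of blood cells, which binds the β tail, stood at 14.0, 22.6, 5.83 and 1.10 FPKM (log2 fold change -2.31). Vav1, a blood cell exchange factor, stood at 4.56, 7.89, 2.15 and 0.279 FPKM, and Apbb1ip, the Rap1 effector RIAM, at 9.34, 8.66, 4.12 and 0.908 FPKM. The other 2 were Fyb and Tln1, at -1.24 and -1.01. Skap2, an adaptor, showed no such gap, at 26.4, 26.4, 23.5 and 26.7 FPKM. The WT mean of the 5 lower genes was 1.48 to 3.14 times KO replicate 1, below the ratios of Itgb2 and Itgam.

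Of 10 genes for enzymes that build selectin-binding sugars, 6 were tested, 0 passed the unadjusted limit in either direction, and the median log2 fold change was -0.23. The leukocyte fucosyltransferases Fut4 and Fut7, which finish the sugar that selectins bind, were under 1 FPKM in every library, between 0.0839 and 0.449 FPKM and between 0.0476 and 0.629 FPKM. Both were too low to be tested.

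Among cytokines and receptors that induce the vessel-side genes, 8 of 10 were tested, 3 were lower and 0 higher by the unadjusted limit, with a median log2 fold change of -0.15. Il1b stood at 35.7, 59.8, 2.49 and 4.65 FPKM and Tnf at 5.42, 5.38, 1.66 and 1.06 FPKM, so both KO libraries were low. The third, the TNF receptor gene Tnfrsf1b, stood at 17.3, 22.7, 6.98 and 0.660 FPKM. Tnfrsf1a, the receptor of most cell types, stood at 66.5, 79.9, 75.1 and 87.1 FPKM. Il1a stood at 4.52, 2.40, 6.21 and 2.75 FPKM, highest in KO replicate 1, as Sele was. The IL-1 receptor gene Il1r1 stood at 5.01, 6.72, 8.23 and 8.12 FPKM, with both KO libraries above WT. The part of these genes in the Sele values was not tested.

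Of 12 other integrin genes listed, Itgax among them, 8 were tested, 1 was lower and 1 was higher by the unadjusted limit, and the median log2 fold change was -0.31. Itga5, the α chain of the fibronectin receptor, stood at 14.9, 16.0, 8.00 and 2.58 FPKM (log2 fold change -1.53). Itga6, a laminin receptor chain of basal keratinocytes, stood at 11.3, 9.9995, 20.8 and 27.1 FPKM (log2 fold change 1.09), with both KO libraries above WT. The keratinocyte markers summed to 3487 and 2736 FPKM in WT skin and to 7784 and 5002 FPKM in KO skin, and their part in the Itga6 values was not tested. Itgb1, the β chain shared by most of these, stood at 62.8, 52.4, 49.0 and 36.5 FPKM.

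Markers of single leukocyte types differed in how many were lower. Of 7 macrophage markers 5 were lower by the unadjusted limit, with a median log2 fold change of -2.54, and their WT mean was 0.597 (Cd163) to 11.3 times (Cd14) KO replicate 1. Of 6 neutrophil markers 4 were tested and 3 were lower, and of 6 T cell markers 5 were tested and 1 was lower. For mast cells 1 of 6 was lower, and of 5 platelet markers 3 were tested and 1 was lower. All 5 B cell markers were below the filter. Outside the leukocytes, 0 of 6 fibroblast markers passed the unadjusted limit, 3 of 5 keratinocyte and 2 of 6 hair follicle markers were higher, and 1 of 5 muscle markers was lower. Cd14 was the one marker of these macrophage genes with a wider ratio in KO replicate 1 than Itgb2.

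The genes whose profile over the 4 libraries was nearest to each of the 9 were named by the root mean square (RMS) difference of mean-centred log2(FPKM + 1) among 13027 genes. Itgam and Itgb2 were each other's nearest gene, at 0.138, followed for Itgam by Pf4 (0.248) and the complement receptor C3ar1 (0.272), and for Itgb2 by Pf4 (0.363) and Trem2 (0.389), a receptor of macrophages. The nearest genes to Selplg were Lcp1 (0.0596), Fcgr1 and Cyth4, and to Itgal Ptpn6 (0.0250), Relt and Dennd1c. Lcp1 and Ptpn6 are among the leukocyte markers used above. Itgb7 was nearest to Crip1 (0.0430), Arhgap45 and Susd3, and Itga4 to Slamf8 (0.0189), R3hdml and Casq2, the last a calcium store protein of muscle. Selp was nearest to Col4a2 (0.0572), Vwf (0.0823) and Cdh5 (0.0988), a basement membrane collagen and a pair of endothelial genes. Sele was nearest to Snai1 (0.0643), Cd163 (0.101) and Procr (0.126). Vcam1 was nearest to Filip1 (0.0167), Olfml2b and Sp100. With 4 libraries that share depth and tissue makeup, many genes have like profiles, and the nearest gene of a weak gene can be near because both vary little.

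Within the set the profiles of Itgam and Itgb2 were the closest and those of Itgb2 and Sele the farthest apart, at an RMS difference of 1.70. The 2 vessel-side selectins differed from each other by 0.606, more than Itga4 did from Vcam1, its ligand, at 0.310.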

How the data were processed

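RNA of 4 skin libraries (2 WT, 2 KO) was sequenced as paired ends on a NovaSeq. According to the study's methods, reads were aligned to mm9 with HISAT2 and counted per gene, and the submitters' processing notes name HISAT2 version 2.0.1 and StringTie version 2.0.6. The deposited table holds FPKM, already scaled by the authors to length and depth, although it is named as counts: 99.993% of its values above 0 are not whole, counting as whole only a value written with no remainder. The program that wrote these FPKM is not given in the sources used here. A count model had been planned for counts and was not used.

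Values were transformed to log2(FPKM + 1), and genes that reached 1 FPKM in 2 libraries or more, 13027 in all, entered a limma 3.58.1 fit in R 4.3.3 with genotype as the only term, a mean-variance trend and Benjamini-Hochberg adjustment. The fit was also run on simulated data with changes of known size, which checks the calculation and not the results given here. Calls needed an adjusted p under 0.05 with a log2 fold change beyond 1 in either direction. Same-numbered libraries were treated as unpaired. The members and gene lists were chosen with earlier results of these data known. Named genes are the 9 members, genes of the lists, Gsdmd and the 3 genes nearest to each member. Alternatives were other pseudocounts, filters and scalings, no trend, the replicate number as a block and leaving out each library, with a crossed block added after the data were seen. Gene positions are from GENCODE for mm9. Tables and figures were made with Python 3.11.15, pandas 2.3.3 and matplotlib 3.10.9.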

Additional observations from a re-analysis of the deposited data

How the results depend on the processing

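Of 109 log2 fold changes of single genes under the alternatives, 99 kept direction and side of the threshold, 9 passed it newly and 1 turned its sign, that of Sele, which ran from -1.34 to 0.59 when a library was left out. The cause was not tested. Members called ran from 0 to 7 when a library was left out (7 without KO replicate 1 and 2 without KO replicate 2), members past the unadjusted limit from 3 to 9, and genes called from 0 to 1920. Genes lower by the unadjusted limit ran from 205 to 1600. Without either WT library, Itgal and Itga4 dropped below the filter and 7 members were tested. The median log2 fold change of the members was -2.37 at a pseudocount of 0.1 and -2.48 with at least 5 FPKM required, which leaves fewer members, and ran from -2.41 to -0.98 when a library was left out. Relative to cell type markers, the difference for Itgb7 was 0.031 with the median over markers, and at a pseudocount of 0.1 it was -1.99 for Itgam, -0.19 for Itgal, 0.29 for Sele and -0.75 for Selp. Scaling by median-ratio factors moved the median over all genes from 0.11 to -0.01 and the split from 539 lower and 802 higher genes to 697 and 609, and upper-quartile scaling to 667 and 656, with each member still lower.

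The replicate block left 0 members called and put 7 in place of 6 past the unadjusted limit, Vcam1 being the gene added, with 686 genes lower. The correlation of the deviations of same-numbered libraries was -0.20 over 13027 genes, and a shared litter or day is given by no source, so they were not paired. Numbers crossed, 0 members were called and 6 passed the unadjusted limit. With 2 libraries a group, FPKM in place of counts and about 4.01 fragments behind the lowest Sele value, depth and replicate number limit what can be said of the weak genes.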
